A study of Mus musculus with 1778 samples.

Results

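The nuclear-encoded oxidative phosphorylation genes were followed in single cells of early mouse embryos. Members were the rows of the count table whose symbols mark subunits of the respiratory chain and of ATP synthase (Nduf followed by a, b, c, s or v and a number, the 4 Sdh genes, Uqcr, Cox4 to Cox8, and Atp5), and symbols of pseudogenes or unnamed models were left out. This gave 83 of 24920 genes: 37 of complex I, 4 of complex II, 8 of complex III, 18 of complex IV and 16 of complex V. Complexes were assigned by the start of the symbol alone, here and below, and not by known place in a complex. The rule uses symbols and no measured values. The table named 0 mitochondrially encoded genes, so subunits made inside the organelle were not analysed here.

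Oxidative phosphorylation makes ATP in the inner mitochondrial membrane. Complexes I and II pass electrons from NADH and succinate to ubiquinone, complex III hands them to cytochrome c, and complex IV reduces oxygen. Complexes I, III and IV pump protons outward, and ATP synthase (complex V) uses the proton gradient. Most subunits are read from nuclear genes and imported, and complex II is read from nuclear genes alone. Early embryonic cells are known to draw much of their ATP from glycolysis, and neural crest cells arise at the edge of the neural plate and migrate into the head.

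Cells were sorted 1 to a well and sequenced by Smart-Seq2, a method that reads along the whole transcript and counts reads without molecular identifiers. The embryos were C57BL/6, carried Wnt1::Cre and Rosa26TdTomato, and had 4, 6, 8 or 10 somites, and all stages shared this genotype. Wnt1-driven Cre marks the dorsal neural tube as well as crest cells that leave it. All cells are labelled as cranial crest. Embryos and litters are not named, each stage therefore counts as 1 sample, and the stages could not be tested against each other.

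After filtering, 1728 of 1778 cells remained, 12.7% of them of 4 somites, 48.3% of 6, 13.1% of 8 and 25.8% of 10. They carried 8 different numbers in their sample names, read here as plates although the labels do not say so. A plate is named by the stages it holds: plates 4/6, 4/8 and 6/8/10 hold several, 6a, 6b and 6c hold 6 somites only (6a the most cells and 6c the fewest), and 10a and 10b hold 10 somites only. Levels are counts per 1000000 reads (CPM), out of the reads on genes other than Rn45s, the ribosomal RNA precursor, summed over the cells of a group. Kept cells held 10736 to 1007751 such reads, with a median of 387020. Of the kept cells, 53.2% had at least 3 of 9 crest markers at 10 CPM or more. That share was 27.7% at 4 somites, 37.2% at 6, 75.3% at 8 and 84.3% at 10, so most cells of 4 and 6 somites did not show the markers of the labelled cell type at this cut. At least 3 of 8 neuroepithelial markers were present in 59.1%, 41.9%, 34.4% and 25.1% of cells of 4, 6, 8 and 10 somites. Cells with at least 3 markers of endothelium, erythroid cells, heart, surface ectoderm, endoderm or mesoderm made up 24.9% of all kept cells, from 29.1% at 4 somites to 17.9% at 10.

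Some 10-somite wells stood apart in the level of these genes. On plate 10a, the 75 cells of well columns 20 to 24 (19.8% of its cells) held 14409 CPM of the members in sum, against 9822 CPM in columns 1 to 19. The median per column ran from 9182 to 10887 CPM in columns 1 to 19 and from 13149 to 14759 CPM in columns 20 to 24, with no overlap. The 12 cells of plate 10b held 16000 CPM. These wells also carried less Rn45s (35.995% and 35.6% of gene reads, against 55.8% in columns 1 to 19) and more reads per cell (medians of 529724 and 623452, against 299924). They were set apart after their levels had been seen, so leaving them out lowers the 10-somite level of these genes by that choice. The stage and Sox10 results on the summed level at 10 somites are given with and without them.

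**Figure D1:**
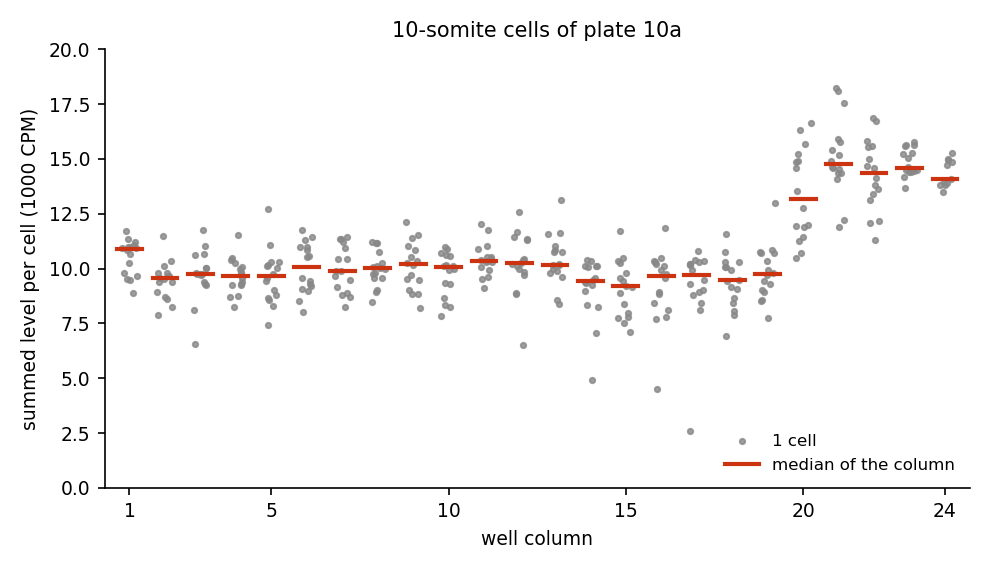
Summed level of the 83 members (1000 CPM, vertical axis) in each kept 10-somite cell of plate 10a, by well column (horizontal axis). Grey points are cells and red bars are column medians, which lie at or below 10887 CPM in columns 1 to 19 and at or above 13149 CPM in columns 20 to 24.

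The promoters were searched for 3 short letter patterns known from genes of mitochondrial proteins, and a few are printed to show where these letters lie. RefSeq promoters (GRCm38.p6, 250 bases before to 50 after the start) matched 66 of the 83 members. Both strands were searched, and overlapping matches were counted. GCGCANGCG, the core of the nuclear respiratory factor NRF1 motif, stood in the promoters of 20 of 66 members (30.3%), against 7.03% of the 27025 genes with a promoter. AAGATGGCG, for YY1, was found in 7 members (10.6%, against 1.64% of genes), and CCGGAAGT, for ETS factors such as GABPA, in 5 (7.58%, against 4.31%). In all, 29 of the 66 members (43.9%) had at least 1 of the 3, against 11.9% of genes. The 27025 genes include many not measured in these cells, whereas 60 of the 66 members were measured. The share among measured genes was not computed, so the excess may not be particular to these members. The sequences below are stretches of 100 bases upstream of the start that no GENCODE exon overlaps, 5′ to 3′ on the gene's strand, with matches in capitals. Cox6a1 (chr5:115348982-115349081, minus strand) and Atp5h (chr11:115419963-115420062, minus) show the NRF1 core. Uqcr11 (chr10:80406831-80406930, minus) and Uqcrh (chr4:116075072-116075171, minus) show the ETS letters, in Uqcrh on the opposite strand. Atp5b (chr10:128083173-128083272, plus), the member with the highest level, has none of the 3 here.
Cox6a1: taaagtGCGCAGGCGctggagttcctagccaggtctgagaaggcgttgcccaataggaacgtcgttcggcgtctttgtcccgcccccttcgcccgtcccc
Atp5h: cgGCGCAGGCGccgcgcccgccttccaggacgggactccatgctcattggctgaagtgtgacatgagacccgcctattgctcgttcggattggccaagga
Uqcr11: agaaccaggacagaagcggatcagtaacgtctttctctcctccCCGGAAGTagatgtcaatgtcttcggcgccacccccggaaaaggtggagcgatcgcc
Uqcrh: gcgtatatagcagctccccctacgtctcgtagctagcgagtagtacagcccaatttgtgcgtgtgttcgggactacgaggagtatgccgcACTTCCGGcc
Atp5b: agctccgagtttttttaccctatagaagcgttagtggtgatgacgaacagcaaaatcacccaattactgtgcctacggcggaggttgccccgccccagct
The 27 measured members with a match had a median of -0.28 on the log2 scale (10 against 4 somites, chained within plates as described below), and the 33 without one had -0.17. The motifs differed in this: the medians with and without a match were -0.36 and -0.17 for YY1 (7 members with one), -0.22 and -0.19 for NRF1 (18), and -0.11 and -0.20 for ETS (5). A match of letters is a description and not a binding site.

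Of the 83 members, 73 were measured, meaning that they reached 5 CPM at some stage, as did 10391 genes in all. Per kilobase of transcript, ATP synthase held the highest levels. Atp5b, the catalytic beta subunit (chromosome 10, 128083273 to 128090391, GRCm38), stood at 1522 CPM per kb over all kept cells, and Atp5a1, the alpha subunit, at 626.7 CPM per kb. In complex III, Uqcrc1, a core protein (chromosome 9, 108936633 to 108949623), was highest at 300.7 CPM per kb, and in complex IV the highest were Cox4i1 at 278.5 and Cox5a at 266.9 CPM per kb. In complex II, Sdha, the flavoprotein that oxidises succinate, led with 184.9 CPM per kb, and Sdhb, its iron-sulfur partner, held 118.6 CPM per kb. In complex I, Ndufv2, an iron-sulfur subunit of the NADH-oxidising arm, held 155.95 CPM per kb. Uqcrfs1, the Rieske protein, held 173.04 CPM per kb.

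The members together took 1.25% of the reads at 4 somites, 1.204% at 6, 1.02% at 8 and 1.11% at 10. Complex V took most of that sum, with 7076 CPM at 4 somites, and was followed by complex I with 2458, complex III with 1212, complex II with 912.7 and complex IV with 809.3 CPM. These sums are shares of reads, which grow with transcript length, and do not compare molecules. Thinned to 50000 reads in each of 1722 cells, 31 of the 83 members had a read in at least 90% of cells, against 67 at full depth.

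Tissue-specific subunit isoforms were low beside their widely expressed partners. The shares that follow are of CPM per kb within each isoform group over all kept cells. Cox6a2, a heart and muscle form, had 0 reads, and Cox6a1 held the whole group. Cox8c, a testis form, also had 0 reads, Cox8b had 6 reads in 5 cells, and Cox8a held 99.98% of its group. A count of 0 allows up to 0.00427 CPM, from 3 reads over all kept cells. Cox7b2 (19 reads) held 0.166% of its group and Cox7a1, the muscle form of subunit VIIa, 0.142% (67 reads). Cox4i2, an oxygen-responsive form of subunit IV, held 2.05% against 97.95% for Cox4i1, and its share over the 12 units of stage and plate with at least 10 cells ran from 0.875% to 3.07%. Ndufa4l2, the hypoxia-induced paralog of Ndufa4, held 1.36%, and ranged from 0.457% to 3.61% over the units. Cox6b2 held 1.81%, with 3.06% at 4, 1.89% at 6, 1.46% at 8 and 1.17% at 10 somites.

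Where several forms were measured, their balance differed between units. Atp5g1, Atp5g2 and Atp5g3 encode the same mature c subunit of ATP synthase, and held 16.6%, 17.8% and 65.6% of their summed CPM per kb. Atp5g3 led in each unit, with 60.8% to 71.7%. Cox7a2l, a factor of respiratory supercomplexes, held 63.5% of its group and Cox7a2 36.4%, but Cox7a2 ranged from 20.5% to 54.5% over the units. Its highest share was on plate 10b, whose 12 cells stand apart, with 132.7 CPM against 184.6 CPM for Cox7a2l. Its lowest was on plate 6c, with 22 kept cells, at 22.8 against 147.8 CPM. Cox7a2 has the shorter transcript of this pair, and the part of transcript length in the range was not tested. Within complex II, Sdha held 43.9%, Sdhb 28.2%, Sdhd 21.8% and Sdhc 6.10% of the summed CPM per kb, where Sdhc and Sdhd are the membrane anchors. Ndufs5, a complex I subunit, had 0 reads in all kept cells, and RefSeq names 1 pseudogene after it. The handling of reads that map to several places is not given here, and 8 members have pseudogenes named after them (13 in all), so low values of such genes are uncertain.

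Among cells of the same plate, the summed level was lower in the older embryos. The sum was 12468 CPM at 4 somites, 12042 at 6, 10195 at 8 and 11097 at 10, and 9783 CPM at 10 somites without the wells that stand apart. On plate 4/6 it was 12824 CPM at 4 and 12502 CPM at 6 somites. On plate 6/8/10 it was 11583 CPM at 6, 10205 at 8 and 9659 at 10 somites. On plate 4/8 it was 11813 CPM at 4 and 10053 CPM at 8 somites, the latter from 15 cells. The older stage was the lower in each of these comparisons, but the difference on plate 4/6 was smaller than the spread between plates. On plate 4/6, 51 of the 73 measured members were higher at 6 than at 4 somites. The stages of a plate lay in separate blocks of well columns: 6 somites in columns 1 to 12 and 4 in 13 to 21 of plate 4/6, 6 somites in 1 to 5, 8 in 8 to 21 and 10 in 21 to 24 of plate 6/8/10 (column 21 held both), and 4 somites in 6 to 12 and 8 in 24 of plate 4/8. Stage and well position therefore cannot be told apart within plates, and columns of a single stage differed too, with 11027 CPM in columns 8 to 12 and 9821 CPM in columns 13 to 21 among the 8-somite cells of plate 6/8/10.

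That spread was read at 6 somites, the stage with most plates. The level over its 5 plates was 11757 ± 588.6 CPM (SD, n = 5 plates), from 11118 to 12502 CPM, which is an SD of 0.0719 on the log2 scale. The labels do not say that plates are separate embryos, so this spread may be technical. Counting error was far smaller, as the exact Poisson interval at 95% for the 4-somite sum ran from 12447 to 12489 CPM. These intervals hold counting error alone: without molecular identifiers, 1 molecule can give several reads.

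On the log2 scale, the summed level differed by -0.17 between 10 and 4 somites in all cells, and by -0.35 without the wells that stand apart. It was -0.0171 with Rn45s counted in the total and -0.00574 with each plate weighted equally, so its size depended on these choices. Chained within plates (6 against 4 on plate 4/6 plus 10 against 6 on plate 6/8/10), the difference was -0.30, and by way of 8 somites (8 against 4 on plate 4/8 plus 10 against 8 on plate 6/8/10) it was -0.31. The share of cells with crest markers was higher and that with neuroepithelial markers lower at the later stages, as given above, and their part in the result was not tested. Without cells bearing markers of other types, the difference in all cells was -0.14.

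**Figure D2:**
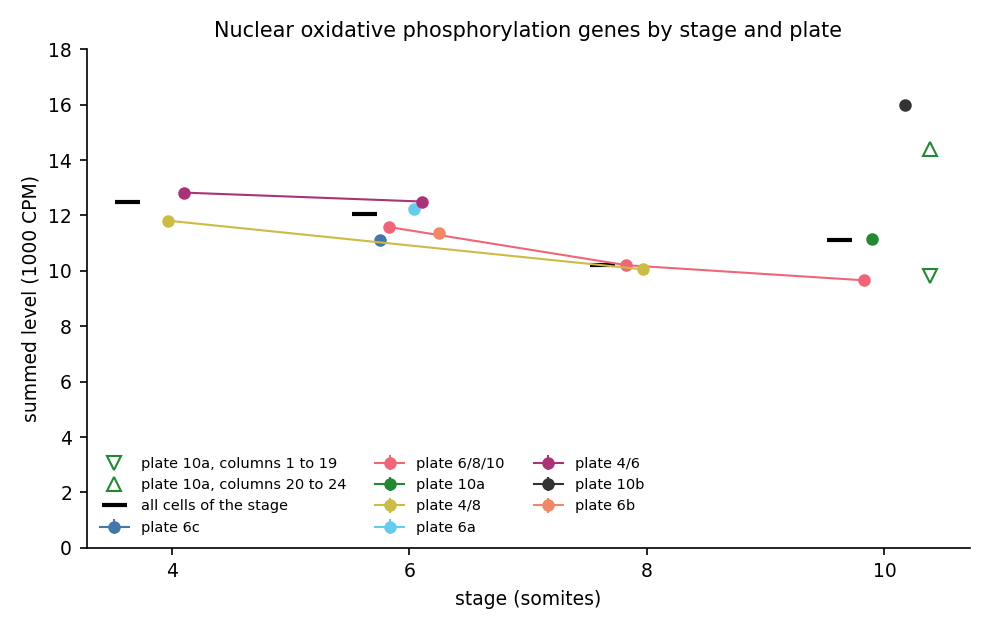
Summed level of the 83 members (1000 CPM, vertical axis, from 0) by stage in somites (horizontal axis). Filled points are cells of 1 plate and stage, with lines joining the same plate, bars for exact 95% Poisson intervals (mostly hidden by the points), black dashes for all cells of a stage and triangles for the well columns of plate 10a. Each line runs downward with stage, and the points of plate 10b (16000 CPM) and of columns 20 to 24 (14409 CPM) lie above the others.

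The complexes differed in size of change. From 6 to 10 somites on plate 6/8/10, the log2 difference was -0.35 for complex IV, -0.31 for complex V, -0.24 for complex I and -0.20 for complex III, and 0.05 for complex II. From 4 to 8 somites on plate 4/8 the order was complex V (-0.28), IV (-0.24), III (-0.20), I (-0.17) and II (-0.07). From 4 to 6 somites on plate 4/6, complex V differed by -0.10, complex IV by 0.12 and complexes I, II and III by 0.03, 0.02 and 0.02. Complex II had the smallest difference in size in each of these 3 comparisons, and most of its reads were from Sdha.

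How many single members passed 1.5-fold, the size used for a call here because no test was possible, differed with the cells compared. For 10 against 4 somites in all cells, 1 of 73 measured members was at least 1.5-fold higher (Atp5l, a small membrane subunit of ATP synthase) and 0 were lower. Of the 10391 measured genes, 12.5% were higher and 12.6% lower by that size. For 6 against 4 somites, 0 members passed in either direction (6.51% of genes higher, 2.97% lower). For 8 against 6 somites, 31 members were lower and 0 higher (11.3% of genes lower, 8.59% higher). For 10 against 8 somites, 29 were higher and 0 lower (3.58% higher, 4.98% lower).

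Without the wells that stand apart, 0 of 73 members passed for 10 against 8 somites in either direction (3.37% of genes higher, 4.09% lower). For 10 against 4 somites, 28 were then lower and 0 higher (13.2% of genes lower, 14.2% higher). Of the 73 log2 ratios, 72 were negative, against 49.3% over all genes. The wells were chosen for their high level of these same members, so leaving them out lowers the members at 10 somites by construction. These 28 were 13 members of complex I, 1 of complex II, 5 of complex III, 3 of complex IV and 6 of complex V. The count within plates, given next, was smaller.

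Within plates, 0 members passed for 6 against 4 somites on plate 4/6 (8.33% of genes higher, 6.12% lower) and 0 for 8 against 6 somites on plate 6/8/10 (11.7% higher, 6.46% lower). For 10 against 8 somites there, 2 members were lower and 0 higher (10.5% of genes lower, 4.98% higher), and for 10 against 6 somites 8 were lower and 0 higher (14.6% lower, 14.3% higher). The chained comparison of 10 against 4 somites gave 8 lower and 0 higher (18.6% of genes lower, 20.5% higher). On plate 4/8, 3 members were lower at 8 than at 4 somites and 0 higher (17.5% of genes lower, 18.6% higher). The shares of members called lower were below those of all genes in these comparisons. The signs of the members were less evenly divided than those of all genes, whose transcripts are longer (median length 2781 bases). Of the 73, 55 were lower both at 8 than at 6 and at 10 than at 8 somites on plate 6/8/10, against 27.5% of genes. On plate 4/8, 62 were lower at 8 than at 4 somites, against 50.5% of genes. For 6 against 4 somites on plate 4/6 the signs leaned the other way, with 51 higher and 22 lower, against 46.4% of genes lower. Members that were lower at all 3 steps within plates numbered 18, against 15.5% of genes, and 0 were higher at all 3, against 16.4%. Over all genes, too, the median for 10 against 6 somites was lower where transcripts were shorter. That order was not seen for 6 against 4 somites on plate 4/6, with 0.11 for genes under 700 bases and 0.03 for those of at least 2000. For 10 against 6 somites on plate 6/8/10, the median was -0.35 for members under 700 bases and -0.35 for all genes of that length, -0.34 and -0.23 from 700 to 1000 bases, -0.21 and -0.13 from 1000 to 2000, and -0.16 and 0.08 above.

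**Figure D3:**
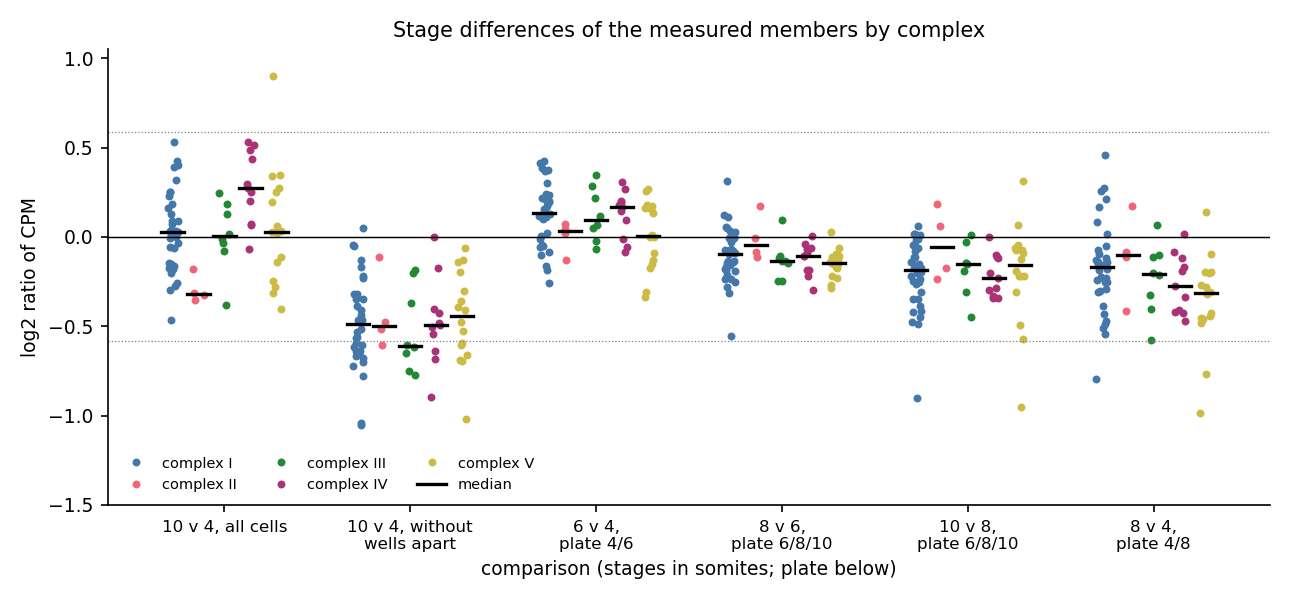
Log2 ratio of CPM (vertical axis) for the 73 measured members by complex in 6 stage comparisons (horizontal axis, with the plate where cells of 1 plate were compared). Points are members, black bars medians over the members of a complex, and dotted lines mark 1.5-fold. The points spread about 0 for 10 against 4 somites in all cells, where 43 of 73 are positive. They lie below 0 for 72 of 73 without the wells that stand apart, which were chosen for their high level of these members.

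The alpha and beta subunits form the catalytic head of ATP synthase, and their genes had lower levels at the older stage on each plate with several stages. Atp5b stood at 3353 CPM at 4 and 3061 at 6 somites on plate 4/6, at 3283, 2698 and 2567 CPM at 6, 8 and 10 somites on plate 6/8/10, and at 3198 and 2558 CPM at 4 and 8 somites on plate 4/8. Atp5a1 stood at 1866 and 1682 CPM, at 1805, 1539 and 1444 CPM, and at 1912 and 1576 CPM in the same cells. The stages were in the same order for both genes. Their log2 differences for 10 against 4 somites were -0.31 and -0.40 in all cells (exact 95% Poisson intervals -0.32 to -0.31 and -0.41 to -0.39), and -0.49 and -0.47 within plates. In columns 20 to 24 of plate 10a, Atp5b was at 2955 CPM, against 2567 CPM in columns 1 to 19, and Atp5a1 at 1418 against 1434 CPM.

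In complex I, Ndufs1, the large iron-sulfur subunit of the NADH-oxidising arm, stood at 154.7 and 148.8 CPM at 4 and 6 somites on plate 4/6, and at 144.02, 156.5 and 157.7 CPM at 6, 8 and 10 somites on plate 6/8/10, where it was not lower with stage. Ndufv1, the flavin subunit that binds NADH, stood at 165.4 and 160.2 CPM and at 178.4, 178.1 and 164.6 CPM on the same plates. Ndufa11, an accessory membrane subunit, had the lowest ratio for 10 against 4 somites in all cells (-0.46), with 39.8 and 44.3 CPM on plate 4/6 and 23.3, 21.8 and 15.7 CPM on plate 6/8/10. Its 6-somite values on these plates, 44.3 and 23.3 CPM, lay farther apart than its stages on either plate.

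In complex II, Sdha stood at 574.97 and 593.4 CPM on plate 4/6 and at 550.8, 520.2 and 591.1 CPM on plate 6/8/10. Sdhb stood at 153.9 and 156.5 CPM and at 117.4, 116.7 and 99.2 CPM, and Sdhc at 62.2 and 65.3 CPM and at 45.6, 42.2 and 37.4 CPM. Sdhd had a positive chained ratio (0.11), although it was negative in all cells (-0.33). All 4 genes had negative log2 ratios for 10 against 4 somites in all cells, from -0.35 for Sdhc to -0.18 for Sdha. Sdhb and Sdhc kept that sign in the chained comparison, but on plate 4/8 Sdhb was higher at 8 than at 4 somites, with a log2 difference of 0.17.

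In complex III, Uqcrc1 stood at 536.8 and 527.4 CPM on plate 4/6, at 519.1, 472.1 and 475.7 CPM on plate 6/8/10 and at 539.99 and 500.1 CPM at 4 and 8 somites on plate 4/8. Its 10-somite level on plate 10a was 399.2 CPM, below its level on plate 6/8/10, and columns 1 to 19 and 20 to 24 there had 397.9 and 402.3 CPM. Uqcrfs1 stood at 251.8 and 240.3 CPM, and at 237.7, 214.96 and 210.9 CPM on the same plates. All 8 members of complex III had negative chained ratios, from -0.35 for Uqcrh, the hinge protein, to -0.01 for Uqcr11.

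In complex IV, Cox4i1 stood at 214.6 and 228.8 CPM at 4 and 6 somites on plate 4/6 and at 189.5, 166.4 and 135.3 CPM at 6, 8 and 10 somites on plate 6/8/10. On plate 10a it had 152.98 CPM in columns 1 to 19 and 390.5 CPM in columns 20 to 24, so that its ratio for 10 against 4 somites was 0.07 in all cells and -0.50 without the wells that stand apart. Cox5a showed the same switch of sign, with 0.27 in all cells and -0.17 without those wells. Among members with at least 20 CPM at some stage and the same sign in all cells and within plates, Cox7b had the highest ratio (0.51 and 0.05), and was at 21.9 CPM in columns 1 to 19 and 79.5 CPM in columns 20 to 24. Only 4 such members were positive in both ways, the others being Ndufb11, Ndufb6 and Ndufb10 of the membrane arm of complex I, and 24 were negative in both. For Ndufb11, Ndufb6 and Ndufb10 the ratios were 0.40, 0.09 and 0.04 in all cells and 0.12, 0.23 and 0.09 within plates, and all 4 were negative without the wells that stand apart.

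In columns 20 to 24, the shorter a member's transcript, the higher its ratio to columns 1 to 19 tended to be. Of the 73 measured members, 57 were at least 1.5-fold higher than in columns 1 to 19 and 0 lower, against 11.3% and 25.4% of genes. Complex IV, whose subunits are mostly small, was at 1691 against 641.96 CPM, complex I at 3482 against 1975 CPM, and complex II at 801.9 against 754.6 CPM. The median log2 ratio was 1.741 for the 32 members under 700 bases, 1.34 for 15 members of 700 to 1000, 0.55 for 20 members of 1000 to 2000, and 0.15 for 6 longer ones. All measured genes of these lengths had medians of 1.34, 0.80, 0.18 and -0.39, so other genes showed the same order by length. Atp5k, the e subunit of ATP synthase and the measured member with the shortest transcript, was at 15.3 against 2.95 CPM, while Sdha (2900 bases), the longest, was at 453.1 against 518.9 CPM. Spearman's rho of ratio and length was -0.74 over the 73 members and -0.61 over 10155 genes, where all points come from the same cells. Lengths are medians over GENCODE transcripts, which may not be the ones read in these cells. For example, Ndufb2 has 2413 bases by this measure and a ratio of 1.91.

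**Figure D4:**
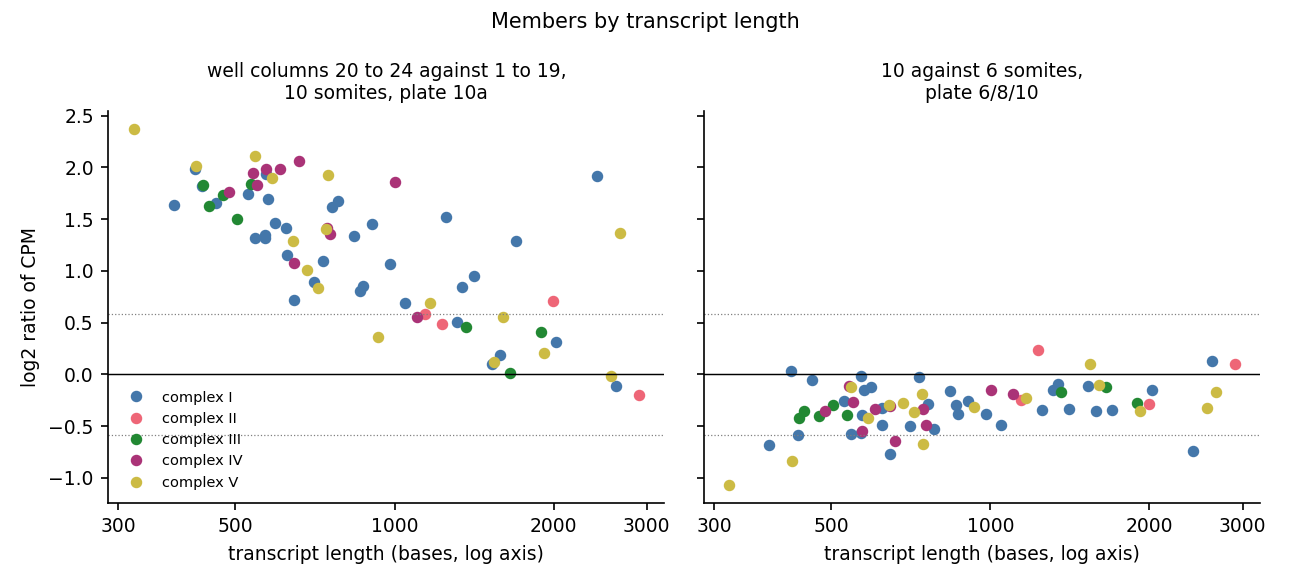
Log2 ratio of CPM (vertical axis) against transcript length in bases (horizontal log axis) for the 73 measured members, coloured by complex, with dotted lines at 1.5-fold. On the left, columns 20 to 24 against 1 to 19 at 10 somites on plate 10a give a rho of -0.74, with most long members near 0 apart from Ndufb2 and Atp5g1, and on the right, 10 against 6 somites on plate 6/8/10 gives 0.34, with most points below 0.

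Plates with 6-somite cells differed along the same axis. On plate 6/8/10 against plate 6a, plate 4/6 and plate 6b, members under 700 bases had a median log2 ratio of -0.66 and those of at least 2000 bases 0.01, and all genes of these lengths -0.43 and -0.06. The lower values of 8 against 6 somites in all cells followed it too, with -0.66 and -0.12 for the same classes of members, but 8 against 6 somites within plate 6/8/10 gave -0.10 and -0.13. The first comparison is among 6-somite cells only, so stage does not differ there, and how far plate moves the differences between stages in all cells was not tested further.

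Across the 12 units, the highest level of a member was 4.05 times its lowest in the median member. It was 1.31 times for Atp5b and 20.2 times for Atp5k, the widest range. The highest unit was plate 10b for 62 of the 73. Across cells of a unit, the sums of complexes I and IV correlated with a Spearman's rho of 0.34 to 0.75 over the 9 units of at least 50 cells. Those of complexes II and V correlated with -0.04 to 0.28. Complexes I and IV had the highest rho of the 10 pairs of complexes in each of these units. The median over the pairs was 0.51 on plate 10a and ran from 0.08 to 0.26 in the other units. The 0.75 was also from plate 10a, whose cells include wells that stand apart with higher sums of both complexes. Cells of a unit share plate, depth and well position, and the values are given as a description.

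Cells with and without reads of Sox10, a transcription factor of migrating crest, differed in the summed level of these genes by amounts that depended on the scaling. At least 1 Sox10 read was found in 17.7% of cells at 4 somites, 32.8% at 6, 75.8% at 8 and 80.5% at 10. Median reads per cell with and without Sox10 reads were 484287 and 466398, 320574 and 356665, 512914 and 526955, and 364291 and 300704. The summed level with and without Sox10 reads was 12136 and 12540 CPM at 4 somites, 11755 and 12178 at 6, 10267 and 9985 at 8, and 11154 and 10818 at 10. These are log2 differences of -0.05, -0.05, 0.04 and 0.04, each smaller in size than the SD over the 6-somite plates (0.0719). That did not hold under other scalings: with edgeR's TMM the differences were 0.00478, 0.0321, 0.159 and 0.207, and with DESeq2 size factors 0.0137, 0.0314, 0.136 and 0.176, so that the sign turned at 4 and 6 somites and the values at 8 and 10 somites exceeded that SD.

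Within the 8 units of stage and plate with at least 10 cells on each side, the log2 difference in CPM ran from -0.05 to 0.05. At 6 somites it was -0.05 on plate 6/8/10 (11472 and 11880 CPM), -0.02 on plate 6a (12108 and 12278 CPM), 0.01 on plate 4/6 (12574 and 12494 CPM) and 0.04 on plate 6b (11524 and 11218 CPM). The sign thus differed between plates of a single stage. In columns 1 to 19 of plate 10a, the levels were 9875 and 9619 CPM, and in all 10-somite cells without the wells that stand apart they were 9815 and 9635 CPM, a log2 difference of 0.03.

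**Figure D5:**
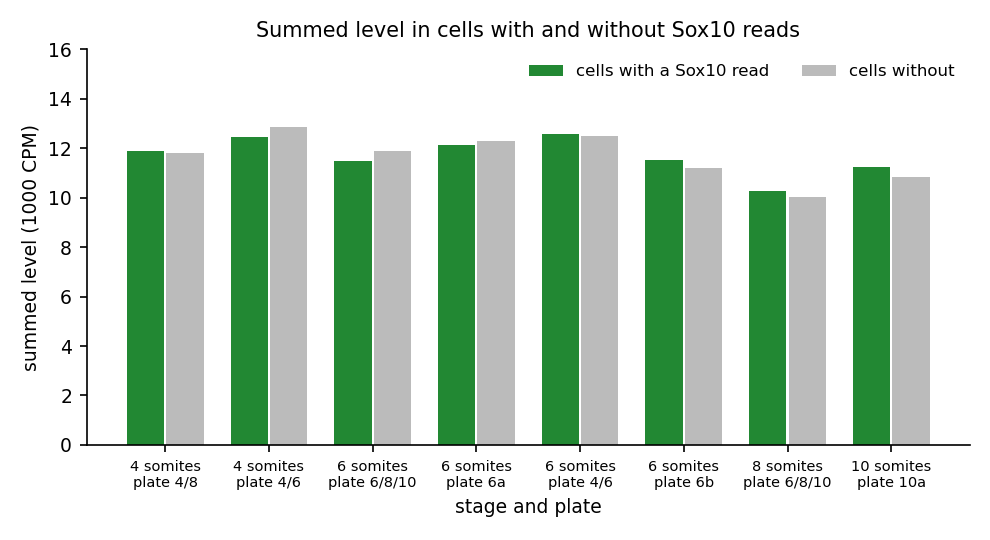
Summed level of the 83 members (1000 CPM, vertical axis, from 0) in cells with a Sox10 read (green) and without (grey), for the 8 units of stage and plate with at least 10 cells on each side (horizontal axis). Bars are sums over the cells of a unit without error bars, as each is 1 value, and the log2 difference within a unit lies between -0.05 and 0.05.

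Members at least 1.5-fold lower in cells with Sox10 reads numbered 2 of 73 at 4 somites (14.5% of genes) and 0 at 6, 8 and 10 somites (13%, 16.4% and 20.1%), and 0 were higher at any stage (6.66%, 5.21%, 6.85% and 6.08% of genes at 4, 6, 8 and 10 somites). With plates pooled, the median member differed by -0.17, -0.21, -0.01 and 0.10 at the 4 stages, and the median gene by -0.06, -0.06, -0.06 and -0.09. TMM scaling shifts all these pooled values up by 0.05, 0.08, 0.12 and 0.16. Within plates at 6 somites, the median member differed by -0.07 (plate 6/8/10), -0.08 (6a), -0.02 (4/6) and -0.01 (6b). The pooled -0.21 lay outside these values, and the share of cells with Sox10 reads differed between plates. At 4 somites it was -0.02 on plate 4/8 and -0.22 on plate 4/6. At 10 somites it was 0.05 on plate 10a, including the wells that stand apart. Of the measured members, 3 (Ndufb5, Ndufb8 and Sdhc, named after their values were seen) had a negative ratio in all 8 units, against 7.06% of genes, and 0 a positive one, against 3.10%.

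By the median over the units, the lowest members with at least 20 CPM at some stage were Ndufv3, an accessory subunit of the NADH arm (-0.27, from -0.48 to 0.38), and Sdhd (-0.24, from -0.39 to 0.04). Among these members they were followed by Ndufa12 (-0.17) and Cox4i1 (-0.16, negative in 7 of 8 units). The highest were Ndufa10 (0.18, positive in 6 of 8), Ndufv1 (0.16, positive in 6), Ndufs7, which carries the last iron-sulfur cluster before the quinone (0.10, positive in 7), and Ndufs1 (0.10, positive in 6). Of the members named in this paragraph, 0 had the same sign in all 8 units.

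Genes that serve the same pathway were read from lists of assembly factors, cytochrome c, carriers, the citric acid cycle and others. For 10 against 4 somites within plates, 20.5% of all measured genes were at least 1.5-fold higher and 18.6% lower, and the counts of each list stand beside these shares. The median member differed by -0.20. The 16 measured genes of the citric acid cycle and pyruvate dehydrogenase had a median of 0.01, with 0 at least 1.5-fold higher and 1 lower (Idh3b, a subunit of isocitrate dehydrogenase, -0.72). Their median transcript length was 2517.5 bases, and only 6 measured members had at least 2000. For 10 against 6 somites on plate 6/8/10, those members had a median of -0.16 and all genes of that length 0.08. The lists differed in transcript length, and its part in these values was not tested. Citrate synthase (Cs) stood at 283.4 and 285.4 CPM at 4 and 6 somites on plate 4/6. On plate 6/8/10 it stood at 301.5, 350.4 and 384.2 CPM at 6, 8 and 10 somites, the reverse order of Atp5b. Its log2 ratio for 10 against 6 somites there (0.35) was the highest of the 16 genes. Their median was 0.03 and the lowest was -0.41 (Idh3g). Of 14 assembly factors of complex I, 1 was higher and 1 lower (median -0.06), of 12 of complex IV, 1 was higher and 0 lower (0.08), and of 12 of complexes II, III and V, 0 were higher and 1 lower (0.00). Cycs, the soluble cytochrome c, stood at 115.9 and 124.1 CPM on plate 4/6 and at 114.1, 113.5 and 126.2 CPM on plate 6/8/10, whereas Cyc1, the cytochrome of complex III, stood at 311.4 and 299.1, and at 268.6, 235.2 and 217.8 CPM.

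The 78 mitochondrial ribosomal proteins had a median of -0.17, with 0 higher and 2 lower. In columns 20 to 24, 55 of them were at least 1.5-fold higher than in columns 1 to 19, against 11.3% of all genes. Of 11 measured regulators of mitochondrial biogenesis, 1 was higher and 3 lower (median 0.02). Nrf1 itself stood at 176.5 and 165.5 CPM on plate 4/6 and at 151.005, 159.9 and 181.8 CPM on plate 6/8/10. Gabpa, the regulator called higher (1.41), stood at 83.8 and 85.7 CPM and at 28.2, 64.7 and 73.6 CPM on these plates. Its 6-somite values, 85.7 and 28.2 CPM, thus differed between plates. Yy1, among those called lower (-1.33), stood at 60.98 and 39.3 CPM and at 67.98, 49.9 and 41.9 CPM. Of 12 import genes, 0 were higher and 1 lower (-0.04), and of 8 carriers and pores 0 were higher and 2 lower (-0.21).

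Glycolysis genes had a lower median than the members, a difference that was not tested. Of 16 measured, 7 were at least 1.5-fold lower and 0 higher within plates for 10 against 4 somites (median -0.49), against 18.6% and 20.5% of all genes. The list also holds Eno1, which was not measured, with 0.57 to 1.02 CPM by stage. The handling of reads that map to several places is not given here, so this low value is uncertain. Slc2a1, the glucose transporter GLUT1 gene, stood at 3159 and 3121 CPM at 4 and 6 somites on plate 4/6 and at 2043, 966 and 893 CPM at 6, 8 and 10 somites on plate 6/8/10. Gapdh stood at 4115 and 3687 CPM, and at 4187, 3394 and 2644 CPM in the same cells. Ldha, which makes lactate from pyruvate, did not follow this order, with 17051 and 19891 CPM, and 19146, 17184 and 18633 CPM. In columns 20 to 24 against 1 to 19 these genes had a median log2 ratio of -0.12, with 0 higher and 4 lower, against 1.34 for the members. The median transcript length of the glycolysis genes was 2560 bases, whereas only 6 measured members had at least 2000 bases. In the same wells, those 6 members had a median of 0.15, and all measured genes of that length -0.39. The part of transcript length in this contrast was not tested.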

How the data were processed

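The deposited table held raw read counts of genes in single cells, which the authors had not normalized, as their whole numbers show. Tools in the submitters' processing notes are STAR 2.6 and bcl2fastq 2.18, with the build mm10, whereas counter and annotation are not stated there. The filter asked for 50000 gene reads per cell, Rn45s included, and 1500 detected genes, which left depths of 10736 to 1007751 reads. Spike-ins and Rn45s were left out of totals. Reads were summed over cells, 0.5 reads were added before log2 ratios, and intervals are exact (conditional Clopper-Pearson or Poisson, 95%). The code was tested on simulated data. No doublet caller was run, since cells were sorted 1 to a well. Members, lists and comparisons were chosen with earlier results of these data known. Named members were the 2 highest per kilobase in each complex, the subunit isoform groups, the 5 largest and smallest ratios of 10 against 4 somites with at least 20 CPM and the same sign within plates, and the 4 largest and smallest Sox10 medians with at least 20 CPM. A gene that this rule names is not reported here. Others, and the genes of the other lists, were named after their values were seen. Analyses used Python 3.11.15, and edgeR 4.0.16 and DESeq2 1.42.0 for alternative scalings only. The alternative without the wells that stand apart was chosen after seeing the data, and the others were minimum level, fold, added reads, cell filters, weighting and left-out plates.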

Additional observations from a re-analysis of the deposited data

Results flagged for a closer look

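At 6 somites, 38 values were available over 5 plates, and 2 had a plate far from the others by Dixon's criterion, which flags about 1 in 20 groups by chance. Both were on plate 6c, which held 22 kept cells, 90.9% of them with a Sox10 read. Uqcrc1 was at 622.8 CPM there and at 519.1 to 548.1 CPM on the other plates. Cox7a2l was at 147.8 CPM there and at 100.1 to 107.1 CPM on the others. The part of the Sox10 share in these values was not tested.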

How the results depend on the processing

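No paired analysis was possible because each stage is 1 sample and the labels give no replicate numbers that stages share. For 10 against 4 somites, the summed log2 difference (-0.168) was -0.0171 with Rn45s in the total, -0.350 without the wells that stand apart, -0.299 within plates, -0.00574 with equal weight per plate, and -0.209 to -0.0901 when 1 plate was left out. Members at least 1.5-fold higher numbered 3 with no minimum CPM, 0 at 2-fold, 6 with Rn45s, 8 without cells of other types, 0 without the wells that stand apart, 0 within plates, 34 with equal weight, and 1 to 12 with a plate left out (12 without plate 4/6). Lower members numbered 2 with no minimum CPM, 28 without the wells, 8 within plates, and 0 to 1 with a plate left out. At 10 somites, equal weight counts the 12 cells of plate 10b, which stand apart, as much as the cells of any other plate. For 6 against 4 somites, the sum was -0.189 with Rn45s, and higher members numbered 1 with no minimum CPM and 0 to 2 with a plate left out. For 8 against 6 somites, the sum was 0.204 with Rn45s, and lower members numbered 1 at 2-fold, 1 with Rn45s, 0 within plates and 9 with equal weight. For 10 against 8 somites, the sum was -0.0317 with Rn45s, -0.0595 without the wells, -0.0793 within plates and 0.277 with equal weight. Higher members numbered 6 at 2-fold, 18 from the mean of CPM per cell, 0 without the wells, 0 within plates and 47 with equal weight, and lower ones 1 with no minimum CPM and 2 within plates. Between cells with and without Sox10 reads, the sum was -0.152, -0.0646 and 0.150 at 4, 8 and 10 somites with Rn45s, 0.0321, 0.159 and 0.207 at 6, 8 and 10 somites under TMM, and 0.0314, 0.136 and 0.176 with DESeq2 size factors. The cause of these changes was not tested. Depth limits Cox8b, Cox7b2 and Cox7a1, with 6, 19 and 67 reads.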
